A study of Mus musculus with 1 sample.

Results

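The VEGF and angiopoietin signalling genes described here are 10 genes, taken by symbol from the 32285 genes of a single-cell RNA sequencing matrix of the mouse adrenal medulla: the ligands Vegfa, Vegfb and Vegfc, their receptors Kdr, Flt1 and Flt4, the ligands Angpt1 and Angpt2, and the receptors Tek and Tie1. VEGF-A acts through KDR (VEGFR2) on endothelial cells and drives vessel growth and permeability, while FLT1 (VEGFR1) binds VEGF-A and VEGF-B and limits what reaches KDR, and FLT4 (VEGFR3) is the receptor of VEGF-C and VEGF-D. Angiopoietin 1 activates TEK (TIE2) and stabilises vessels, angiopoietin 2 can oppose it, and TIE1 is a related receptor that forms complexes with TEK. The adrenal gland is among the most densely vascularised organs, and its steroid-producing and catecholamine-producing cells lie next to fenestrated capillaries.

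The library was made from wild-type mice at postnatal day 15, with no treatment given. Both adrenals of 5 mice of mixed sex, 10 in all, were dissected by hand to remove most of the cortex and pooled, and 10000 viable cells entered 1 droplet library. Each unique molecular identifier (UMI) counts 1 captured transcript. No replicate of the library exists among these data, so no difference was tested. Levels are UMIs per 1000000 UMIs (CPM), summed over the cells of a class, and all intervals, given in parentheses at 95%, cover counting error only. Ratios of levels have exact conditional intervals, and a count of 0 is read as allowing up to 3 counts.

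The matrix held 11214 barcodes with 500 to 33809 UMIs each, and 10139 cells passed the filters with a median of 3567 UMIs. Clusters named from markers that include none of the 10 genes gave 13 classes with 9022 cells. There were 2059 chromaffin-like cells (1670 adrenaline and 389 noradrenaline), 127 cycling chromaffin-like cells, 91 transitioning adrenaline-like and 328 transitioning noradrenaline-like cells, and 178 sustentacular-like cells, named for the glia-like supporting cells of the medulla. Although the tissue is labelled as medulla, 3429 cells were cortex-like and held 45.4% of all UMIs. They comprised 124 Wnt4-high, 1160 Cyp11b1-high, 1783 Akr1c18-high and 362 cycling cells. The library also held 2150 endothelial-like, 571 immune-like and 89 fibroblast-like cells. A further 1074 cells lay in clusters with markers of more than 1 cell type, and 54.5% of these were called doublets against 0.931% of the named cells. They were kept apart as mixed cells. The endothelial-like class had 8 of 10 endothelial markers in at least 50% of its cells and the sustentacular-like class 10 of 14 of its own.

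All 10 genes were detected. In all cells that passed, Vegfa had 1952 UMIs, Vegfb 4301 and Vegfc 254, whereas Angpt1 had 37 and Angpt2 121, so levels of the angiopoietins rest on few molecules. The counts come from the 3′ end of transcripts and are not per length, so the levels of a gene are compared between classes and not with those of another gene. In GRCm38 coordinates, Vegfa (ENSMUSG00000023951) lies at chr17:46016993-46032369 on the minus strand, Vegfb (ENSMUSG00000024962) at chr19:6982473-6987651 on the minus strand and Vegfc (ENSMUSG00000031520) at chr8:54077606-54187096 on the plus strand. Kdr (ENSMUSG00000062960) and Flt1 (ENSMUSG00000029648) share a chromosome, at chr5:75932827-75978458 and chr5:147561604-147726011, both on the minus strand. Flt4 (ENSMUSG00000020357) lies at chr11:49609263-49652739 on the plus strand. Tek (ENSMUSG00000006386) at chr4:94739289-94874976 on the plus strand and Tie1 (ENSMUSG00000033191) at chr4:118471191-118490061 on the minus strand are also on 1 chromosome. Angpt1 (ENSMUSG00000022309) lies at chr15:42424723-42676977 on the minus strand, and Angpt2 (ENSMUSG00000031465) at chr8:18690263-18741562 on the minus strand, inside the gene Mcph1 of the opposite strand. The annotation of GENCODE M21 lists all 10 as protein coding.

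The promoters below set Vegfa, a ligand found mainly in cortex-like cells, beside 3 receptors found in endothelial-like cells, so that the DNA before genes of the 2 patterns can be compared. They are RefSeq sequences of GRCm38.p6, 5′ to 3′ on the strand of the gene, from 250 to 11 bases before the RefSeq start. Capitals mark GGAAG or its reverse complement CTTCC, the core of sites bound by ETS factors, a family known to act at endothelial genes. Vegfa is at chr17:46032388-46032627, Kdr at chr5:75978466-75978705, Flt1 at chr5:147726022-147726261 and Tek at chr4:94739039-94739278.
Vegfa: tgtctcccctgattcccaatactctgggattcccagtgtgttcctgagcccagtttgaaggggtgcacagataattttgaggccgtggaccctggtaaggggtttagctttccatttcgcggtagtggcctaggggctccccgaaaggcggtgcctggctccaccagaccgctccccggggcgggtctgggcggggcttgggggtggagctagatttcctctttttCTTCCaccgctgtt
Kdr: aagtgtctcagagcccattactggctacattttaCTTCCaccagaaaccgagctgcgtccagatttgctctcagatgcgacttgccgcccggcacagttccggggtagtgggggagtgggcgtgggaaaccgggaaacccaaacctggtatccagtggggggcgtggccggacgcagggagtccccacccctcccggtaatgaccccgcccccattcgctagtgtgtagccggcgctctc
Flt1: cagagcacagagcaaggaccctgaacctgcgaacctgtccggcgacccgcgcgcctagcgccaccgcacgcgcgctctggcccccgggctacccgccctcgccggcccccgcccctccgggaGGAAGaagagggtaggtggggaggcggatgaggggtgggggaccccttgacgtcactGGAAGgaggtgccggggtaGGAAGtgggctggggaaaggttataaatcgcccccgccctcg
Tek: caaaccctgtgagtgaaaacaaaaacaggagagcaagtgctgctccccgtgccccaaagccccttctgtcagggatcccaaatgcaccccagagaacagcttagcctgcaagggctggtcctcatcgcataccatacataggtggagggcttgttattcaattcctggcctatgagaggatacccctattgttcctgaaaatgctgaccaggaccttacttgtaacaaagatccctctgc
GGAAG was found 1 time in the Vegfa window, 1 time in that of Kdr, 3 times in that of Flt1 and 0 times in that of Tek, and 62.2% of 32851 promoter windows of the same length hold it. GGAA followed by another base was not counted. All 4 windows hold such sites as unmarked GGAA or TTCC, so the counts of GGAAG do not rank the genes by ETS cores. ACGTG, the core of sites bound by hypoxia-inducible factors, was found in 0 of these 4 windows against 15.9% of all windows, and its variant GCGTG was found 2 times in Kdr and 1 time in Flt1 against 27.1% of all windows (both strands were searched for each motif). A match is only a match of letters, and the absence of one in this window says nothing about a factor.

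Vegfa was highest in Wnt4-high and Cyp11b1-high cortex-like cells, lower in chromaffin-like cells, and scarce in endothelial-like and immune-like cells. Sustentacular-like cells had 0 UMIs, but their upper limit of 16.1 CPM overlapped the interval of adrenaline chromaffin-like cells (15.4 to 21.8). Its level was 120.3 CPM (94.2 to 152) in Wnt4-high cells, which carried Cyp11b2, the aldosterone synthase of the outer cortex, at 85.2 CPM. In Cyp11b1-high cells, named for the enzyme that makes corticosterone, Vegfa reached 109.5 CPM (102 to 117). These 2 levels did not differ beyond counting error, with a ratio of 0.910 (0.715 to 1.18). Akr1c18-high cells of the inner cortex had 25.4 CPM (22.5 to 28.6), so that Cyp11b1-high cells exceeded them 4.32-fold (3.76 to 4.97) and Wnt4-high cells 4.74-fold (3.61 to 6.17). Cycling cortex-like cells, with Akr1c18 at 5788 CPM and Cyp11b1 at 585 CPM, were at 39.5 CPM (33.1 to 46.7), 1.56-fold above Akr1c18-high cells (1.26 to 1.92).

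Among medullary cells Vegfa was higher in the noradrenaline than in the adrenaline class. Noradrenaline chromaffin-like cells had 39.5 CPM of Vegfa (29.5 to 51.8) from 52 UMIs, and adrenaline chromaffin-like cells 18.4 CPM (15.4 to 21.8) from 135 UMIs, a ratio of 2.15 (1.53 to 2.98) in favour of the noradrenaline cells. The 3 adrenaline sub-clusters lay between 13.6 and 20.6 CPM, and the interval of the smallest of them, 103 cells, overlapped that of the noradrenaline cells. Atf3, an immediate-early gene that tissue dissociation can raise, was at 148 CPM in noradrenaline and 63.5 CPM in adrenaline cells, and its part in the Vegfa difference was not tested. Cycling chromaffin-like cells at 28.0 CPM (18.3 to 41.0), transitioning adrenaline-like cells at 24.7 CPM (14.1 to 40.1) and transitioning noradrenaline-like cells at 16.8 CPM (11.5 to 23.7) had intervals that overlapped one another, and the first 2 also overlapped that of the noradrenaline cells. The transitioning noradrenaline-like cells were below the noradrenaline cells, with a ratio of 0.425 (0.265 to 0.673). No Vegfa UMI was found in sustentacular-like cells, where 3 counts would be 13.1 CPM, against 21.6 CPM in chromaffin-like cells together.

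Vegfa was scarce in endothelial-like cells at 4.90 CPM (3.26 to 7.09) and immune-like cells at 2.80 CPM (0.578 to 8.18), and fibroblast-like cells had 24.6 CPM (9.89 to 50.7) from 7 UMIs. Chromaffin-like cells as a whole had 0.373 times the level of cortex-like cells (0.318 to 0.435), and cortex-like cells 11.8 times that of endothelial-like cells (8.14 to 17.9). The first ratio pools the cortex classes. The chromaffin-like level of 21.6 CPM (18.6 to 24.9) had an interval that overlapped that of Akr1c18-high cells (22.5 to 28.6). Noradrenaline chromaffin-like cells (29.5 to 51.8) lay above Akr1c18-high cells. A Vegfa UMI was seen in 41.7% of Cyp11b1-high cells, 13.5% of Akr1c18-high cells and 7.49% of adrenaline chromaffin-like cells. With each cell thinned to 1000 UMIs the shares were 10.9%, 2.25% and 2.11%. Endothelial-like cells, with a median of 2005.5 UMIs against 5366 in Cyp11b1-high cells, gave 1.26% and, thinned, 0.375%. RNA outside cells was not measured, so how much of these low shares it gives was not tested. Cortex-like cells held 65.7% of all Vegfa UMIs (63.5 to 67.8), chromaffin-like cells 9.58% and mixed cells 19.0%.

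**Figure D1:**
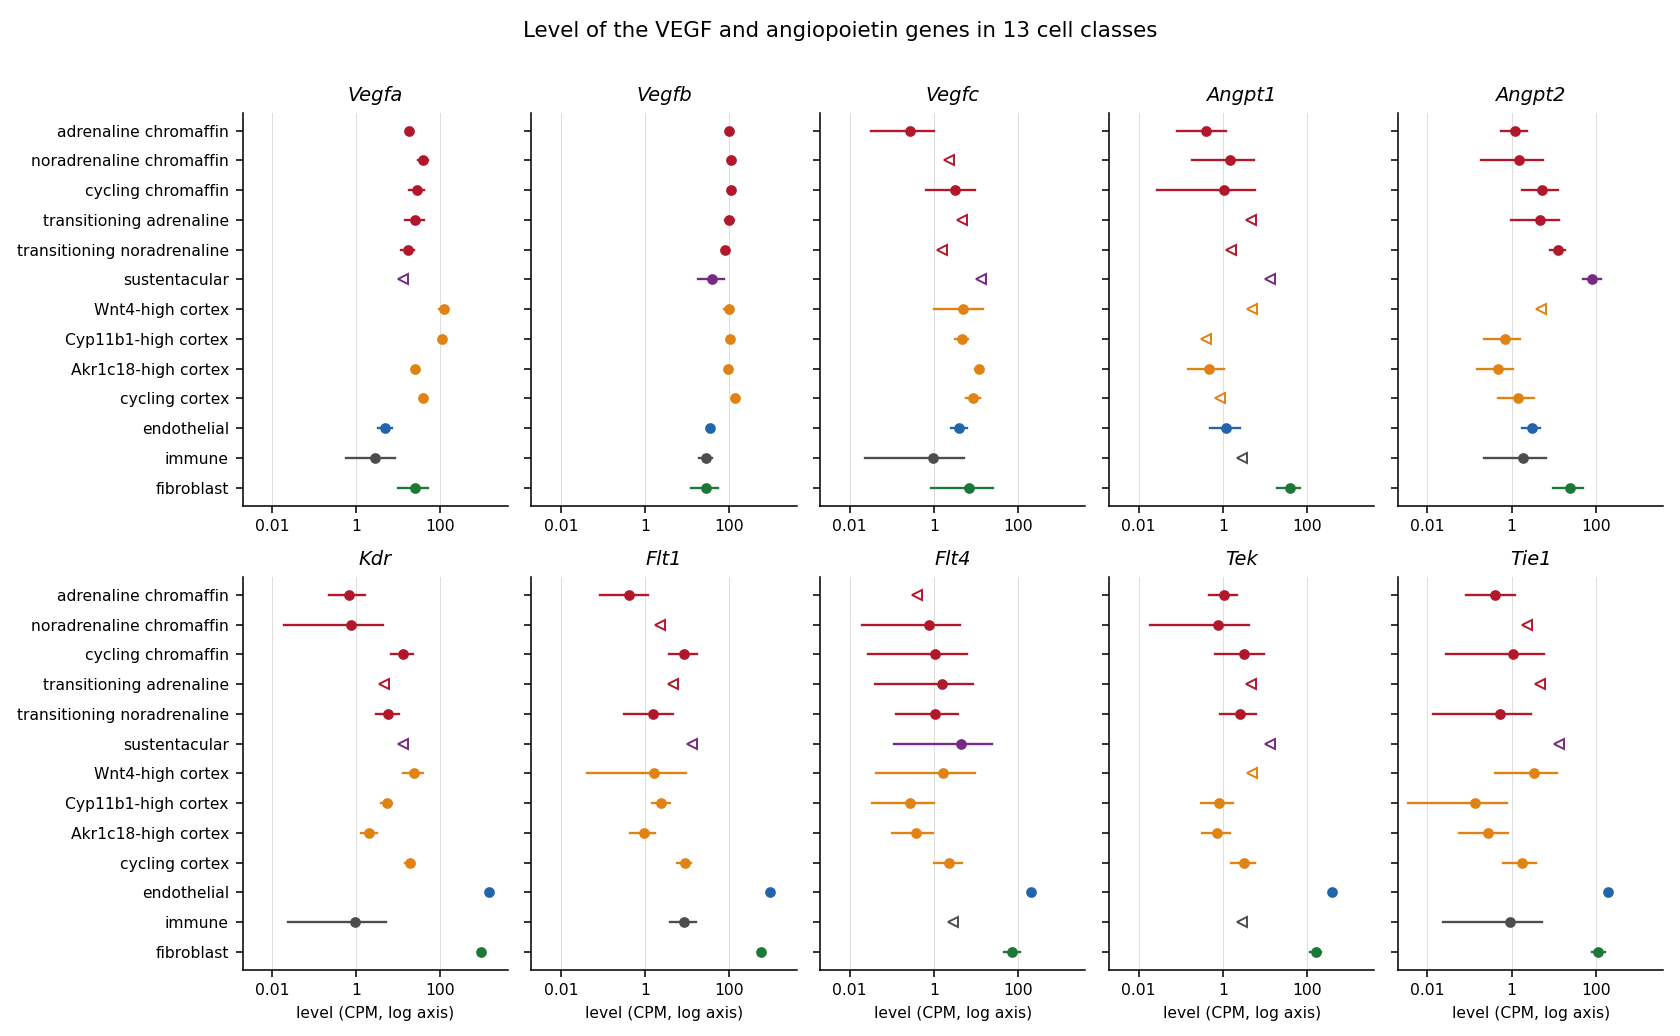
Level of the 10 genes in 13 cell classes of 1 library, in CPM on a log axis, with points at the level and lines over the exact 95% Poisson interval. Open triangles mark classes with 0 UMIs at the level of 3 counts, colours mark medullary (red), sustentacular (purple), cortex (orange), endothelial (blue), immune (grey) and fibroblast (green) classes, and the bottom row of receptors rises in the endothelial class, as in the fibroblast class, where 47 of 89 cells carried endothelial markers.

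The cortex-like sub-clusters refine this picture. Cyp11b1-high cells fell into a sub-cluster of 690 cells with Vegfa at 79.3 CPM (71.1 to 88.2) and one of 470 cells at 152 CPM (138 to 167), a ratio of 1.92 (1.66 to 2.21). The second was led by Atf3, Btg2 and Fos, immediate-early genes. Atf3 was at 178 CPM there against 2.57 CPM in the first, and Fos at 1601 CPM against 148 CPM, and their part in the Vegfa level was not tested. Without that sub-cluster the ratio of Cyp11b1-high to Akr1c18-high cells was 3.13 (2.66 to 3.68). The 4 Akr1c18-high sub-clusters lay between 21.7 and 33.6 CPM, all below both Cyp11b1-high sub-clusters, and the highest of them carried Chgb, a chromaffin granule protein, at 1333 CPM.

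Vegfb encodes a ligand of FLT1 that is best known for its abundance in tissues of high oxidative metabolism. Its level was within a narrow range over the endocrine classes, from 81.5 CPM (69.2 to 95.4) in transitioning noradrenaline-like cells to 134 CPM (122 to 147) in cycling cortex-like cells. Chromaffin-like cells at 103 CPM and cortex-like cells at 102 CPM had a ratio of 1.00 (0.929 to 1.09). Sustentacular-like cells had 39.4 CPM (18.0 to 74.8), endothelial-like cells 34.9 CPM (30.2 to 40.1), immune-like cells 28.0 CPM (18.9 to 40.0) and fibroblast-like cells 28.1 CPM (12.1 to 55.4). The non-endocrine classes thus had overlapping intervals, and the ratio of cortex-like to endothelial-like cells was 2.93 (2.54 to 3.41). Within the endothelial-like cells, cycling cells had 1.71 times the Vegfb of the others (1.28 to 2.29).

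Vegfc, the ligand of FLT4 known for lymphatic growth, had the reverse order to Vegfa in the cortex. Akr1c18-high cells had 11.5 CPM (9.59 to 13.7) from 124 UMIs and Cyp11b1-high cells 4.65 CPM (3.22 to 6.50) from 34 UMIs, a ratio of 0.403 (0.268 to 0.594) for the second over the first. Cycling cortex-like cells had 8.71 CPM (5.88 to 12.4), and Wnt4-high cells 5.01 CPM (1.03 to 14.7) from 3 UMIs. Chromaffin-like cells had only 2 UMIs of Vegfc, or 0.231 CPM (0.0280 to 0.835). Cortex-like cells held 75.2% of the Vegfc UMIs (69.4 to 80.4) and 45.4% of all UMIs. The plot of the ligands by sub-cluster shows both orders.

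**Figure D2:**
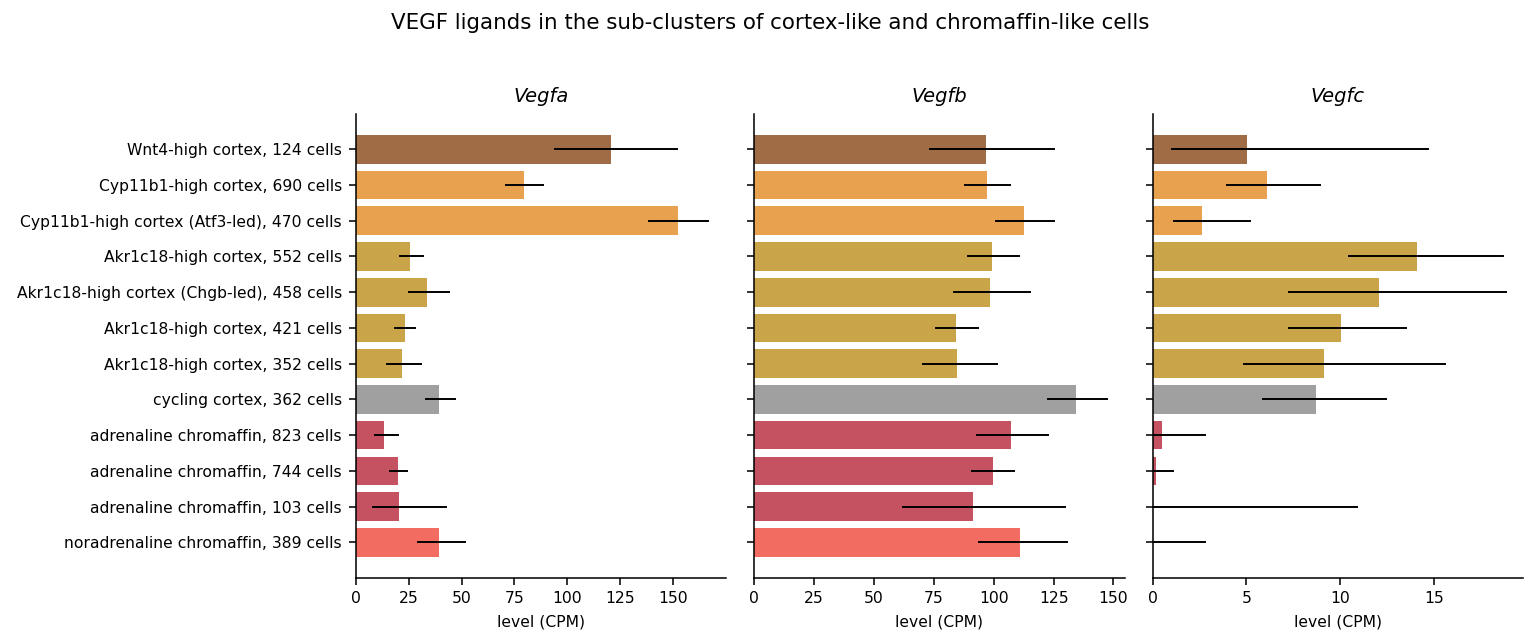
Level of Vegfa, Vegfb and Vegfc in CPM, with bars for the level and black lines for the exact 95% Poisson interval, in each sub-cluster of cortex-like and chromaffin-like cells. Vegfa reaches 79.3 and 152 CPM in the 2 Cyp11b1-high sub-clusters and lies between 21.7 and 33.6 CPM in the 4 Akr1c18-high ones, where Vegfc has its longest bars, while Vegfb differs little.

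By the fold used for counts, a ratio of at least 2 either way after adding 10 CPM, Vegfa was the only one of 5 tested members higher in Cyp11b1-high than in Akr1c18-high cells, and 0 were lower. Of all genes, 3.21% were higher and 2.48% lower in that comparison. Vegfa was also the only one of 7 tested members that was lower in chromaffin-like than in cortex-like cells, and 0 were higher, where 9.26% of all genes were lower and 11.1% higher. That call is for all cortex-like cells together and does not hold for the Akr1c18-high class alone. Neither of the 2 members tested between adrenaline and noradrenaline chromaffin-like cells passed, where 1.82% of genes were higher and 2.43% lower. Vegfa had an inverse fold of 1.74 there on that scale. With 1 CPM added in place of 10, calls change: Vegfa was lower in adrenaline than in noradrenaline cells (inverse fold 2.09), Vegfc was lower (2.22) and Kdr higher (2.08) in Cyp11b1-high than in Akr1c18-high cells, and Vegfc, Kdr and Flt1 joined Vegfa among the members lower in chromaffin-like cells.

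Other genes of the pathway separated the cortex zones as well. Vegfd, a second ligand of FLT4, was at 189 CPM in Akr1c18-high, 190 CPM in cycling and 68.2 CPM in Cyp11b1-high cells, but at 18.4 CPM in Wnt4-high cells and 3.12 CPM in chromaffin-like cells. Nrp1, a co-receptor for VEGF-A, was at 169 CPM in Akr1c18-high and 15.7 CPM in Cyp11b1-high cells, so that Vegfd and Nrp1 were the 2 of 6 tested ligands, co-receptors and modulators that were lower in the latter, and 0 were higher. Of all genes, 2.48% were lower and 3.21% higher there. Ccbe1, which assists the cleavage of VEGF-C, was at 40.6 CPM in cortex-like and 0.231 CPM in chromaffin-like cells. Chromaffin-like cells instead had Nrp2, a co-receptor for VEGF-C and semaphorins, at 74.1 CPM against 4.66 CPM, which made it the only one of 7 tested genes of that list above cortex-like cells, with Vegfd, Nrp1 and Ccbe1 below. Of all genes, 11.1% were higher and 9.26% lower in chromaffin-like than in cortex-like cells. Pgf, placental growth factor, a ligand of FLT1, had 15 UMIs in noradrenaline chromaffin-like cells at 11.4 CPM (6.38 to 18.8) and 12 UMIs in adrenaline cells at 1.63 CPM (0.845 to 2.86).

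Genes of oxygen sensing were given beside these because hypoxia-inducible factors are known regulators of Vegfa. Epas1, which encodes HIF-2 alpha, was at 177 CPM in noradrenaline and 35.4 CPM in adrenaline chromaffin-like cells and was the only one of 4 tested genes of that list to pass there. It was at 57.4 CPM in Cyp11b1-high and 15.1 CPM in Akr1c18-high cells, again the only one of 4. Of all genes, 2.43% were lower in adrenaline than in noradrenaline cells, and 3.21% were higher in Cyp11b1-high than in Akr1c18-high cells. Transitioning noradrenaline-like cells had Epas1 at 191 CPM, with Vegfa at 16.8 CPM, and Wnt4-high cells had Epas1 at 8.36 CPM with Vegfa at 120.3 CPM. The 2 genes did not keep the same order over these classes. A link between them was not tested, and mRNA levels do not show the activity of the factor. Hif1a lay between 49.5 and 71.9 CPM in every class except endothelial-like cells at 149 CPM and fibroblast-like cells at 123 CPM.

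The 5 receptors were highest in endothelial-like cells. Kdr was at 1421 CPM (1391 to 1453) there, Flt1 at 921 CPM (896 to 946), Flt4 at 205 CPM (194 to 218), Tek at 397 CPM (381 to 414) and Tie1 at 197 CPM (186 to 209). In chromaffin-like cells they had 6, 3, 1, 9 and 3 UMIs, or 2.54 CPM summed. The summed level of the 5 was 130.0-fold higher in endothelial-like cells than in all other named cells (121 to 139), 1236-fold higher than in chromaffin-like cells (816 to 1973) and 278-fold higher than in cortex-like cells (245 to 316). Endothelial-like cells held between 72.6% (Kdr) and 77.6% (Flt4) of the UMIs of each receptor, and mixed cells between 19.6% and 23.5%.

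**Figure D3:**
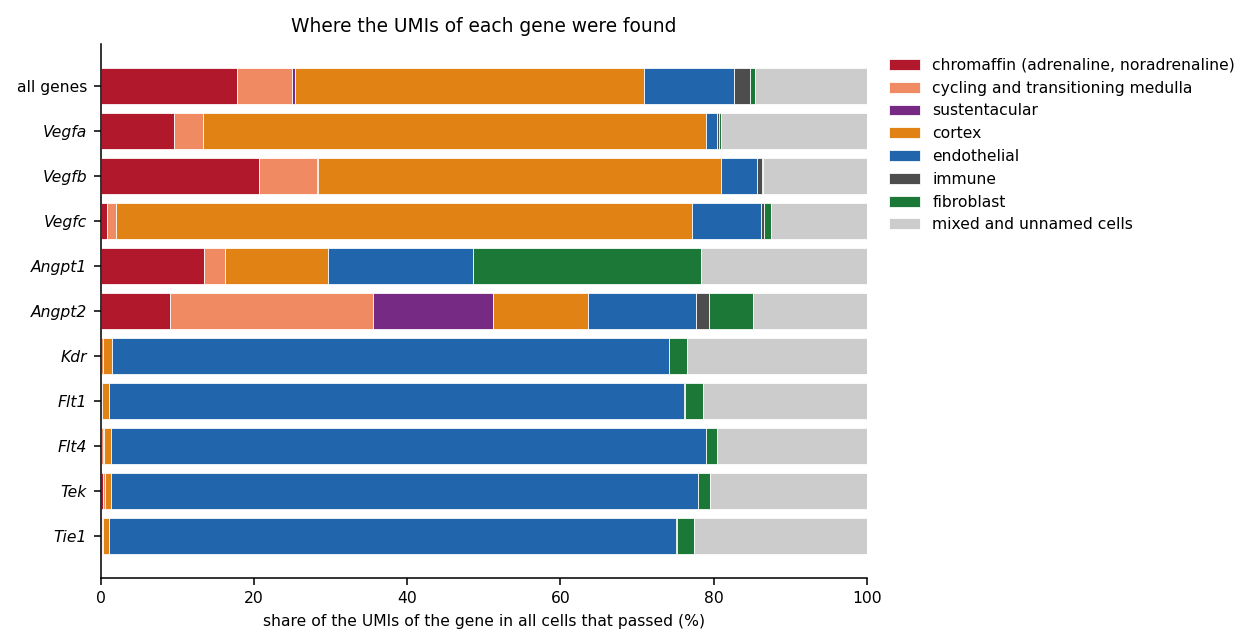
Share of the UMIs of each gene, in percent of its UMIs in all 10139 cells, by group of cell classes, with all genes together in the top bar. Blue, the endothelial class, takes 72.6 to 77.6% of each receptor, and orange, the cortex, 65.7% of Vegfa and 75.2% of Vegfc, beside 45.4% of the UMIs of all genes.

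Much of the receptor signal outside the endothelial class lay in cells with endothelial markers. The other named classes held 866 receptor UMIs, of which 734 (84.8%) were in 118 cells with at least 3 UMIs of the 10 endothelial markers, such as Pecam1 and Cdh5. The remaining 6754 cells held 132 receptor UMIs, or 3.78 CPM (3.17 to 4.49), and against these the endothelial-like cells were 830.4-fold higher (699.8 to 993). Only the comparison cells were filtered, by markers that go with the receptors, so a higher ratio was built in. In the fibroblast-like class, 47 of 89 cells had at least 3 endothelial marker UMIs and held 533 of its 534 receptor UMIs, while the other 42 cells held 1. These 533 are also most of the 734 UMIs above, so the 84.8% rests mainly on this class and does not describe the endocrine classes. That class had 4 of 7 fibroblast markers in at least 50% of its cells, but its summed endothelial markers were at 3844 CPM and its summed mural markers at 1701 CPM, so the name covers more than 1 kind of cell. Without it the receptor ratio was 336 (302 to 376). In the Wnt4-high cortex-like cells, 17 of the 18 receptor UMIs were instead in cells with 0 to 2 endothelial marker UMIs. Of these 17, 13 were Kdr, in 8 cells. Kdr was thus at 22.0 CPM (11.7 to 37.6) in Wnt4-high cells with 0 to 2 endothelial marker UMIs, against 2.79 CPM (1.70 to 4.30) in the corresponding Cyp11b1-high cells and 1.03 CPM (0.514 to 1.84) in the Akr1c18-high cells. Over all their cells, Kdr was at 5.33 CPM in the Cyp11b1-high and 2.05 CPM in the Akr1c18-high class. Part of the Kdr of these classes thus also lay in cells with few endothelial marker UMIs.

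**Figure D4:**
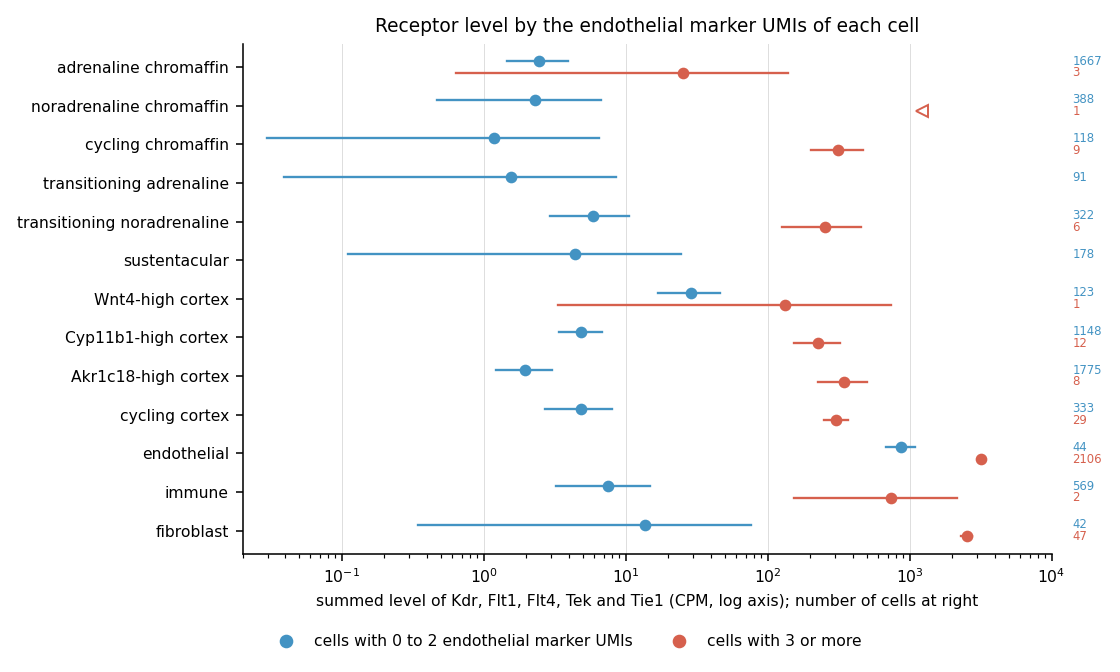
Summed level of Kdr, Flt1, Flt4, Tek and Tie1 in CPM on a log axis for cells with 0 to 2 (blue) and with 3 or more (red) UMIs of the 10 endothelial markers in each class, with exact 95% Poisson intervals, an open triangle for 0 UMIs at the level of 3 counts and the number of cells at the right. Outside the endothelial class the blue points lie between 1.17 and 28.8 CPM, and the Wnt4-high cortex has the highest of them.

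The split of the 2 main VEGF-A receptors also varied. Flt1 gave 39.3% of the Flt1 and Kdr UMIs in endothelial-like cells (38.5 to 40.1). In immune-like cells it gave 9 of 10 UMIs, or 90.0% (55.5 to 99.7), and FLT1 is known to be carried by macrophages. Flt1 was at 8.40 CPM (3.84 to 15.9) there, and 3 of the 9 UMIs were in 2 cells with at least 3 endothelial marker UMIs. In Wnt4-high cells Flt1 gave 1 of 15 UMIs, or 6.67% (0.169 to 31.9). Both intervals lie outside that of the endothelial-like cells, and both rest on few molecules. They treat UMIs as independent, though the 14 Kdr UMIs of Wnt4-high cells lay in 9 cells. Cortex-like cells together gave 29.8% (23.5 to 36.7), also below the endothelial-like interval, so a lower share was not particular to Wnt4-high cells.

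Detection in single endothelial-like cells was limited by depth. With all UMIs, 94.4% of the 2150 cells had at least 1 receptor, against 0.971% of the 2059 chromaffin-like cells, whose median depth was 2992 UMIs. After thinning to 1000 UMIs, Kdr was seen in 67.3% of endothelial-like cells (81.5% with all UMIs), Flt1 in 53.3% (72.4%), Tek in 29.8% (53.3%), Tie1 in 17.0% (36.4%) and Flt4 in 14.7% (32.6%). Of 1868 thinned cells, 196 (10.5%) had 0 of the 5 receptors, 638 (34.2%) had 2 and 8 (0.428%) had all 5. The 5 receptors were the 5 of 10 members higher in endothelial-like than in other named cells, and Vegfa and Vegfb were the 2 that were lower, where 8.33% of all genes were higher and 10.1% lower. The median log2 difference was 2.13 over the members and -0.08 over all genes tested. The members' median falls in the gap between the 5 receptors above it and the 5 ligands below it, so it describes no single member.

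The partners of these receptors showed the same contrast in part. Nrp1 at 454 CPM, Nrp2 at 427 CPM and Ptprb at 583 CPM were higher in endothelial-like cells, the last a phosphatase (VE-PTP) that restrains TEK, while Vegfd and Ccbe1 were lower, out of 7 genes of that list tested. Of 12 sprouting and response genes, 9 were higher and 0 lower, among them Klf2, a flow-responsive transcription factor, at 594 CPM, Aplnr, the apelin receptor, at 99.3 CPM and Dll4, a Notch ligand of tip cells, at 31.0 CPM. The other 3 of these 12, Apln, Cxcr4 and Vash1, did not pass. Of 5 oxygen-sensing genes, Hif1a, Epas1 and Egln3 were higher and 0 lower. Beside these counts, 8.33% of all genes tested were higher in endothelial-like than in other named cells and 10.1% lower.

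The endothelial-like cells fell into 4 sub-clusters, a main one of 798 cells, one of 642 cells with Chgb among its leading genes, a cycling one of 492 cells and one of 218 cells led by Mgp, a matrix protein. Kdr fell from 1714 CPM (1665 to 1764) in the main sub-cluster to 916 CPM (823 to 1017) in the Mgp-high one. Flt1 was at 1110.4 CPM and 689 CPM in the same pair, and Flt4 at 243 CPM and 107 CPM. Tek went the other way, with 437 CPM (412 to 463) and 546 CPM (475 to 625), and Tie1 had 217 CPM and 232 CPM (186 to 285). The VEGF receptors and the angiopoietin receptors thus did not move together. Against all other endothelial-like cells, Mgp-high cells had 0.628 times the Kdr (0.563 to 0.699), 0.735 times the Flt1 (0.647 to 0.832), 0.502 times the Flt4 (0.358 to 0.685) and 1.41 times the Tek (1.22 to 1.63), whereas the Tie1 ratio of 1.19 (0.947 to 1.48) had an interval that spans 1.

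**Figure D5:**
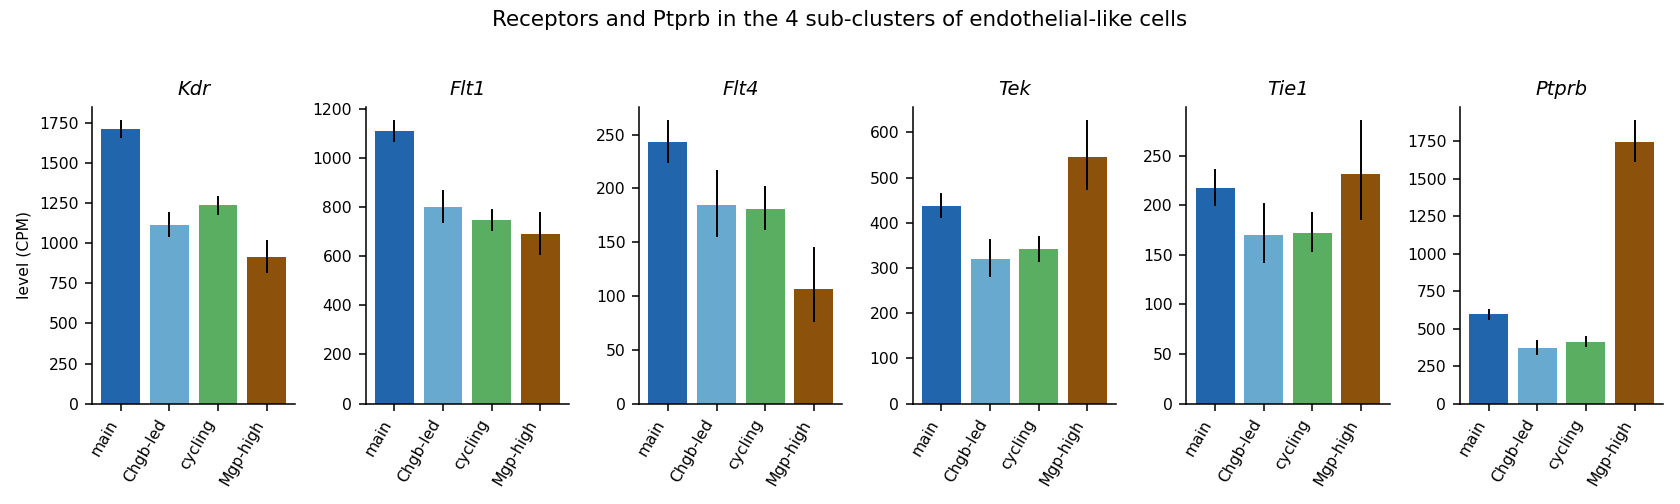
Level of the 5 receptors and of Ptprb in CPM, with exact 95% Poisson intervals as black lines, in the 4 sub-clusters of endothelial-like cells. From the main to the Mgp-high cells Kdr falls from 1714 to 916 CPM, Flt4 from 243 to 107 CPM and Ptprb rises from 596 to 1748 CPM.

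Mgp-high cells differed in other genes of the pathway too. Ptprb was at 1748 CPM (1619 to 1886) there and at 372 to 596 CPM in the other 3 sub-clusters. Vegfc was at 23.4 CPM (10.7 to 44.4) from 9 UMIs against 2.63 CPM from 14 UMIs in all other endothelial-like cells, a ratio of 8.91 (3.40 to 22.1), and was the only one of 8 tested members past the fold, with 0 lower, where 2.28% of genes were higher and 2.36% lower. Of 10 tested sprouting and response genes, 6 were lower and 0 higher: Dll4, Esm1, Aplnr, Kcne3, Nid2 and Pdgfb, with a median log2 difference of -1.29 over the list and -0.04 over all genes tested. Esm1, a tip cell marker, was at 7.80 CPM against 94.8 CPM in main cells, and Aplnr at 20.8 CPM against 109 CPM. The vessel type markers given here gave no single name. Lyve1, of lymphatic and sinusoidal endothelium, was at 1004 CPM against 101 to 155 CPM elsewhere. The arterial Efnb2 was at 57.2 CPM against 117 to 183 CPM. Other genes of the arterial list, such as Sox17 and Unc5b, are not given by sub-cluster, so an arterial name was not settled. Of the venous list, Vwf was at 88.5 CPM against 1.08 to 2.62 CPM and Vcam1 at 96.3 CPM against 10.2 to 14.2 CPM. Nr2f2 was at 950 CPM against 610 to 853 CPM, with an interval that overlapped that of main cells. Ackr1 had 0 UMIs in Mgp-high cells and Selp 1. The capillary Plvap and Cd36 were highest there, at 2217 and 195 CPM, while Gpihbp1 and Rgcc were lowest, at 890 and 1363 CPM. Of the other lymphatic markers, Reln was at 28.6 CPM from 11 UMIs against 0 elsewhere, and Mmrn1 at 7.80 CPM from 3 UMIs against 0 to 2.15 CPM. Prox1 was at 20.8 CPM against 11.3 to 21.7 CPM. Pdpn was at 0 in all 4 sub-clusters and Ccl21a at 0 in all cells, so neither sets the Mgp-high cells apart. In 14 of the 218 cells (6.42%) Ptprc or a lymphocyte gene was seen, against 0.518% of other endothelial-like cells. Without such cells the ratios were 0.684 for Kdr, 0.801 for Flt1, 0.542 for Flt4, 1.56 for Tek and 1.29 for Tie1.

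Cycling endothelial-like cells had less of all 5 receptors than the others pooled, with a summed ratio of 0.796 (0.770 to 0.823) and single ratios between 0.744 (Flt1) and 0.833 (Flt4). None of 8 tested members passed the fold in either direction there, where 2.8% of genes were higher and 0.164% lower. By sub-cluster, cycling cells were below main cells for all 5, with intervals apart. Their intervals overlapped those of Chgb-led cells for all 5, as for Kdr at 1237 CPM (1187 to 1288) and 1117 CPM (1045 to 1193). Mgp-high cells had less Kdr and Flt4 than cycling cells and more Tek. The lower level was thus not particular to cycling cells. The Chgb-led cells had 0.697 times the summed receptors of the main cells (0.664 to 0.731), with Chgb at 841 CPM against 61.4 CPM, and the part of such chromaffin RNA in the difference was not tested. Cells with a UMI of Esm1 or Apln, markers of sprouting tip cells, had receptor shares whose intervals overlapped those of other cells for all 5 receptors. After thinning, Kdr was seen in 70.3% of 101 such cells (60.4 to 79.0) and in 67.2% of 1767 others (64.9 to 69.4), and Tek in 27.7% (19.3 to 37.5) and 29.9% (27.8 to 32.1). Pdgfb, a recruiter of pericytes, was seen in 15.8% (9.33 to 24.4) and 4.92% (3.96 to 6.04), and Nid2, a basement membrane gene, in 2.97% (0.617 to 8.44) and 5.83% (4.78 to 7.03). The intervals overlapped for Nid2, Dll4 and Cxcr4 and were apart for Pdgfb and Kcne3. Apln itself was not past the fold in endothelial-like against other named cells. How much of its UMIs came from RNA of other cells was not tested.

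Angpt2, known mainly from activated endothelium, was highest in sustentacular-like cells. Endothelial-like cells had 17 UMIs at 2.98 CPM (1.73 to 4.77), with a ratio of 1.24 to all other named cells (0.691 to 2.10). Those other cells pool unlike classes. Cortex-like cells at 0.678 CPM (0.380 to 1.12) were below the endothelial-like interval, while that of chromaffin-like cells, at 1.27 CPM (0.634 to 2.27), overlapped it. Sustentacular-like cells had 83.1 CPM (50.1 to 130) from 19 UMIs in 18 of 178 cells, which is 27.9-fold above endothelial-like cells (13.7 to 57.2) and 65.4-fold above chromaffin-like cells (29.6 to 152). Angpt2 was seen in 10.1% of sustentacular-like cells, at a median of 1146 UMIs, and in 0.534% of chromaffin-like cells at 2992 UMIs. After thinning the shares were 5.74% and 0.0989%. Fibroblast-like cells had 24.6 CPM (9.89 to 50.7) from 7 UMIs, with a ratio of 0.296 to the sustentacular-like cells (0.105 to 0.735).

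Transitioning noradrenaline-like cells, which had 7 of 7 chromaffin markers in at least 50% of cells and 11 of 14 sustentacular markers in at least 25%, lay between the noradrenaline and sustentacular-like classes in Angpt2. They had 12.6 CPM of Angpt2 (8.08 to 18.8) from 24 UMIs, 8.30-fold above noradrenaline chromaffin-like cells (2.06 to 72.4), and the sustentacular-like level was 6.59 times theirs (3.41 to 12.6). Cycling chromaffin-like cells at 5.38 CPM (1.75 to 12.6) and transitioning adrenaline-like cells at 4.63 CPM (0.956 to 13.5) had intervals that overlapped that of the transitioning noradrenaline-like cells. Called doublets were kept in these values. The part of droplets that held both kinds of cell in the in-between Angpt2 level was not tested. Angpt2 was the only one of 3 tested members higher in sustentacular-like than in chromaffin-like cells, with Vegfa and Vegfb lower, where 9.29% of genes were higher and 12.7% lower. The Vegfa call rests on 0 UMIs in sustentacular-like cells. At their upper limit of 16.1 CPM, against 21.6 CPM in chromaffin-like cells, Vegfa would not pass the fold.

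The sustentacular-like cells with Angpt2 were compared with those without it, though 18 cells give wide intervals. Sox10, a glial transcription factor, was seen in 44.4% of the 18 cells with Angpt2 and 38.1% of the 160 without, at median depths of 1430 and 1115 UMIs. The endothelial Pecam1, Cdh5, Egfl7 and Emcn and the fibroblast Dcn, Lum and Pdgfra were at 0 in the 18 cells. In the 160 cells, Pecam1 and Cdh5 were seen in 1 cell each, Egfl7 in 2 and the other 4 in 0. Their absence thus does not set the 18 cells apart. The mural marker Pdgfrb was seen in 1 of the 18 and 0 of the 160. Cspg4, another mural marker, was seen in 13 of all 178 sustentacular-like cells and was not split by Angpt2. The collagen genes of the fibroblast list, in contrast, were present throughout, with Col1a1 in 33.3% and 28.8% and Col3a1 in 61.1% and 51.3%. Among the 36 sustentacular-like cells with no UMI of any fibroblast, mural or endothelial marker, 3 Angpt2 UMIs gave 77.0 CPM, a ratio of 60.6 to chromaffin-like cells (10.8 to 229). Mcph1, the overlapping gene of the other strand, had 0 UMIs in sustentacular-like cells.

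Angpt1 had its highest level in fibroblast-like cells, 38.6 CPM (19.3 to 69.2), from 11 of its 37 UMIs, or 29.7% (15.9 to 47.0). This class had the fibroblast marker Dcn in 73.0% of its cells and the mural markers Tagln in 58.4% and Pdgfrb in 56.2%. Which kind of cell in this class carried Angpt1 was not tested. In the 42 cells of that class with 0 to 2 endothelial marker UMIs it was at 109 CPM (47.2 to 215), with 8 UMIs in 8 cells. Endothelial-like cells had 7 UMIs at 1.23 CPM (0.493 to 2.53), and no class of medullary or cortex cells passed 1.52 CPM. Sustentacular-like cells had 0, where 3 counts would be 13.1 CPM. Angpt4, a further ligand of TEK, had 0 UMIs in every named class.

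Across the 18 clusters of at least 50 cells, the genes whose level followed each member most closely were listed as a description, without a test, since the clusters share 1 library. For Vegfa these were Kcnk3, a potassium channel of the adrenal cortex (Pearson r = 0.937), Slc7a1 (0.897) and Inha (0.896), and for Vegfc Dolk, Klhl2 and Mfsd4a (0.872 to 0.909). For the receptors they were endothelial genes, such as Emcn for Kdr (0.993), Pecam1 for Flt1 (0.995), Cldn5 for Tek (0.998), Podxl for Tie1 (0.997) and Myct1 for Flt4 (0.995). Angpt2 followed Art3 (0.972), Rgmb (0.960) and Egfl8 (0.958), and Angpt1 followed Tagln (0.944), Bicc1 (0.939) and Dcn (0.917). These 2 members had 121 and 37 UMIs, below the 200 UMIs asked of the genes compared with them. Their r values thus rest on few molecules. Vegfb followed Dtnb (0.966), Ndufa2 (0.937) and Lsm6 (0.929).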

How the data were processed

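Droplet-based single-cell RNA sequencing (10x 3′ v3.1) was done on 1 library. The authors counted reads with Cell Ranger 4.0.0 against mm10, per the submitters' processing notes, and deposited whole-number UMI counts per gene and barcode, not normalized.

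Cells with 500 to 5000 genes and at most 20% mitochondrial UMIs were kept, as in the methods of the study. Seurat 5.3.0 in R 4.3.3, with Matrix 1.6.5 and SeuratObject 5.2.0, was used for log-normalization and clustering on 2000 variable features and 10 principal components at a resolution of 0.4 on 1 thread. The 10 genes and the pathway lists were left out of the variable features. Clusters with at least 3 markers of a type in at least 50% of cells (25% for sustentacular and cycling markers) were named. Medullary, endothelial, cortex and immune groups were clustered again and mixed sub-clusters set aside. The naming shares, this repeat, and the names of the cortex and endothelial sub-clusters were chosen once the values were known. Doublets were called with Scrublet (scanpy 1.11.5, expected rate 8%) and kept in the values given. Other steps used Python 3.11.15, numpy 2.4.6, scipy 1.17.1 and pandas 2.3.3, with figures by matplotlib 3.10.9.

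Levels are CPM over summed UMIs with exact Poisson intervals, and shares have exact Clopper-Pearson intervals. A gene was past the fold where (CPM + 10) differed at least 2-fold, among genes with at least 20 UMIs in both classes together. No test was made. The fold calls and ratio intervals were tested on simulated counts of adrenaline and noradrenaline chromaffin-like cells. Only genes of higher level were changed there, and by more than the fold in use. The simulation thus does not cover changes in low genes such as Vegfa in these cells, Vegfc, Angpt1 and Angpt2. Named genes are the 10 members, the genes of 3 pathway lists, the 3 genes most like each member and class markers. Immediate-early genes, Chgb, Mgp and Mcph1 were named after their values were seen. The members and lists were chosen with earlier results of these data known. Promoters were found for 8 of the 10 genes.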

Additional observations from a re-analysis of the deposited data

How the results depend on the processing

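Of 269 alternative values, 46 moved past the counting interval of the value given (for gene counts, by over 1.5 times), 223 did not and 0 reversed. A ratio counted as reversed only if it crossed 1 and the interval of the value given excluded 1. The Angpt2 ratio of endothelial-like to other cells crossed 1, but its interval spans 1, so it is among the 223. The ratio of the summed receptors between endothelial-like and other cells (130.0) was 143 with the members among the variable features, 151 at a resolution of 0.8, 273 under a stricter filter on cells (1000 genes or more, mitochondrial share up to 10%) and 113 without called doublets. In comparisons added after seeing the data it was 21.6 with mixed and unnamed cells counted among the others and 336 without the fibroblast-like class. It was 830.4 without other cells that had 3 or more endothelial marker UMIs, a filter set on the other cells only. The Vegfa share of cortex-like cells (65.7%) was 60.9% at a resolution of 0.8, 60.2% under the stricter cell filter and 69.1% without doublets. The Vegfa ratio of Cyp11b1-high to Akr1c18-high cells (4.32) was 5.20 under the stricter filter and, added later, 3.13 without the Atf3-led sub-cluster. The cause was not tested in these cases. With a pseudocount of 1 CPM in place of 10, which gives low genes larger folds, the genes past the fold were 2176 higher and 3780 lower in endothelial-like cells (1252 and 1514 before), 880 and 596 in adrenaline against noradrenaline cells (211 and 281), 3128 and 2619 in chromaffin-like against cortex-like cells (1526 and 1279), 1677 and 3462 in sustentacular-like against chromaffin-like cells (1098 and 1496), and 1215 and 672 in Cyp11b1-high against Akr1c18-high cells (375 and 290). Of 43 member calls compared, 6 differed at that pseudocount, all of them from neither direction to a call. The Angpt2 ratio of endothelial-like to other cells ranged from 0.772, for a mean over cells, to 1.91, for classes from the markers of each cell, so its side of 1 is not settled, and that of sustentacular-like to chromaffin-like cells from 45.1 to 68.7. The stricter filter left no sustentacular-like class, and a mean over cells gives no share of UMIs. With 37 UMIs of Angpt1 and 121 of Angpt2, depth limits what can be said of both. No paired analysis was possible because there is 1 library.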
